A study of Mus musculus with 33 samples.

Results

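The genes described here code for the collagens, the laminins and other proteins of the basement membrane and the matrix around heart cells. They are the rows whose symbol is Col followed by a digit or Lama, Lamb or Lamc followed by a digit, together with Nid1, Nid2, Hspg2, Agrn, Fn1, Sparc, Vcan, Dcn and Postn. Of 56 such rows, 53 had at least 10 reads over all 33 cells, out of 14862 gene rows in the table. The rows left out were Col22a1 and Col8a1 with 1 read each and Lama1 with 2 reads. One row, Col4a3bp, matches by its letters only: it is the ceramide transporter gene now called Cert1, and codes for no collagen, which leaves 52 matrix genes. It is included in the counts of genes below, and counts without it are given beside them.

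Each cell is a single ventricular heart cell of a mouse that carries mAG-hGem, the green component of the FUCCI cell cycle reporter, which fuses a fluorescent protein to geminin and lights up cycling cells. There were 10 mAG-hGem positive and 11 negative cells at embryonic day 14.5 (E14.5), and 6 positive and 6 negative cells at postnatal day 5 (P5). All were sorted by fluorescence, amplified as antisense RNA, and accepted as cardiomyocytes by a PCR for Tnnt2, per the labels' protocols. The labels name no animal, give neither the promoter of the transgene nor a strain, and describe no treatment, so each group stands for 1 sample. No test between groups is possible, and every interval below covers counting error only.

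A basement membrane is a thin sheet of matrix that surrounds muscle cells and lies under endothelium. Laminins, trimers of an alpha, a beta and a gamma chain, form 1 network, collagen IV forms another, and the nidogens and the heparan sulfate proteoglycans perlecan and agrin link them. The collagen IV chains of Col4a1 and Col4a2 assemble together in most tissues, and the Col4a5 chain assembles with those of Col4a3 and Col4a4 or of Col4a6. Fibrillar collagens give tissue its tensile strength and in the heart are made mainly by fibroblasts and their epicardial and mesenchymal precursors.

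Collagen IV genes lie head to head in pairs that share a promoter region, and the windows of both pairs that the values below turn on are shown here so that their layout can be set beside the levels. In RefSeq on GRCm38.p6, Col4a1 (window chr8:11312777-11313076, minus strand) and Col4a2 (chr8:11312555-11312854, plus strand) start 21 bases apart and their windows share 78 bases. Col4a5 (chrX:141475169-141475468, plus strand) and Col4a6 (chrX:141474027-141474326, minus strand) start 1343 bases apart. Each window runs from 250 bases before the start to 50 bases after it, and capitals mark a GC box (GGGCGG) or a CCAAT box (CCAAT) on either strand.
Col4a1: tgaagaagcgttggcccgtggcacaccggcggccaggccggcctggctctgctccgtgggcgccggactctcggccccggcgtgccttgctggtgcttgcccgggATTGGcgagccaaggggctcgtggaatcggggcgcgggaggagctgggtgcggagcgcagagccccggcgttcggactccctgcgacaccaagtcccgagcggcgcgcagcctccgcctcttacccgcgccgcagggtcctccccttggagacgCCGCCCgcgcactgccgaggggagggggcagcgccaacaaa
Col4a2: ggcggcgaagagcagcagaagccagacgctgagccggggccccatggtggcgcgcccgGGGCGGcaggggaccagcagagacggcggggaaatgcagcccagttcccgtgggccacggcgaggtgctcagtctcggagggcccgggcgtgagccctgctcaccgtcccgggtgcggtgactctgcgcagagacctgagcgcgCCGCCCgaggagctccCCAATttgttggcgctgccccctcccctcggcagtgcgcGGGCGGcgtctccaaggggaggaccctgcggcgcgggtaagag
Col4a5: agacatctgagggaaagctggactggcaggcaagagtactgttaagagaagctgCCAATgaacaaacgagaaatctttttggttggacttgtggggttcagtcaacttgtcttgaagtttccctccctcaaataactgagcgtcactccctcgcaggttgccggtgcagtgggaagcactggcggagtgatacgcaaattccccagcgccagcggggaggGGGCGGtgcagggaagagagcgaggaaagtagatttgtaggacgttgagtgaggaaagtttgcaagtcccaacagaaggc
Col4a6: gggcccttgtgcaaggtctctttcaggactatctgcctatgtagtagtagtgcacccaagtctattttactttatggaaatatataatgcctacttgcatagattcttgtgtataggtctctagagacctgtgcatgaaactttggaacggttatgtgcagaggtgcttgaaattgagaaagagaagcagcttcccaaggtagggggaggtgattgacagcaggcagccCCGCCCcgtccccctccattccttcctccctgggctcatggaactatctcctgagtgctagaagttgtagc
The Col4a1 window held 1 GC box and 1 CCAAT box and the Col4a2 window 3 GC boxes and 1 CCAAT box. The Col4a5 window held 1 of each, and the Col4a6 window 1 GC box and no CCAAT box. None of the 4 held the letters TATAAA on either strand, and no matches of different motifs overlapped. Over 32851 RefSeq windows of 300 bases, 35.7% held GGGCGG, 37.4% CCAAT and 13.6% TATAAA. GC content was 74.0% and 73.7% in the Col4a1 and Col4a2 windows and 52.7% and 48.3% in those of Col4a5 and Col4a6, with a median of 52.7% over all windows. A match is only a match of letters. Windows were found for 37 of the 53 genes.

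Levels are counts per 1000000 reads of a cell or of a sum of cells (CPM). Totals ran from 2545036 to 38465225 reads a cell, with a median of 12807230, and 2994 to 10769 genes had a read. The cells were told apart by markers that hold none of the matrix genes: a cell was called cardiomyocyte-like when at least 50% of the cardiomyocyte markers reached 10 CPM, and otherwise endothelial-like when at least 50% of the endothelial markers did. The other marker lists set no class and are given as values. All 21 E14.5 cells and 5 of the 6 P5 positive cells were cardiomyocyte-like, with 13 to 16 of 16 markers. The P5 positive cell L2P12 and the P5 negative cells L1N3, L2N4, L2N7, L2N9 and L2N10 were endothelial-like, with 7 to 11 of 11 endothelial markers and 0 to 5 of 16 cardiomyocyte markers, against their label. L1N3 and L2N10 also held 225164 and 60460 CPM of the globin row Beta.s, and 4 and 3 of 5 red blood cell markers. Of 4 mural cell markers, 2 reached 10 CPM in L2N7 (919 CPM summed), in N10 and in the cardiomyocyte-like cells G1, G2, G27, G28 and N30. The P5 negative cell L2N12 had 7 of 7 epicardial markers (5183 CPM summed), 6 of 14 fibroblast, 2 of 4 endocardial (422 CPM), 3 of 11 endothelial and 3 of 16 cardiomyocyte markers, and is called epicardial-like. The E14.5 negative cell N10 had 14 of 16 cardiomyocyte markers (24654 CPM) beside 6 of 14 fibroblast markers (799 CPM), 2 of 7 epicardial and 2 of 4 endocardial ones. L2N12 met neither class rule and is given alone. N10 met the cardiomyocyte rule and was set apart by choice, with earlier results of these data known. Its fibroblast markers were not particular to it: they summed to 1402 CPM in N7, and 5 of 14 reached 10 CPM in G1. The labelled P5 contrast sets cell types side by side, so the effects of the sort and of the cell type cannot be told apart in that contrast.

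Matrix genes took a small share of the reads of cardiomyocyte-like cells and a larger one elsewhere. Their summed level was 795 to 3123 CPM in the 20 E14.5 cardiomyocyte-like cells without N10. In the 5 P5 cardiomyocyte-like cells it was 166 CPM in L1P5, 265 in L2P3, 312 in L2P7, 798 in L2P8 and 256 in L2P10, and the highest of these lay just above the lowest E14.5 cell. The 6 endothelial-like cells had 4780 to 9033 CPM, L2N12 had 31568 CPM and N10 had 51275 CPM. In the sums of these 6 kinds of cells, 20 genes, Col4a3bp among them, reached 100 CPM and are described with values. The other 33 peaked between 0.0566 and 95.1 CPM, and 17 of them reached 10 CPM in no sum.

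**Figure D1:**
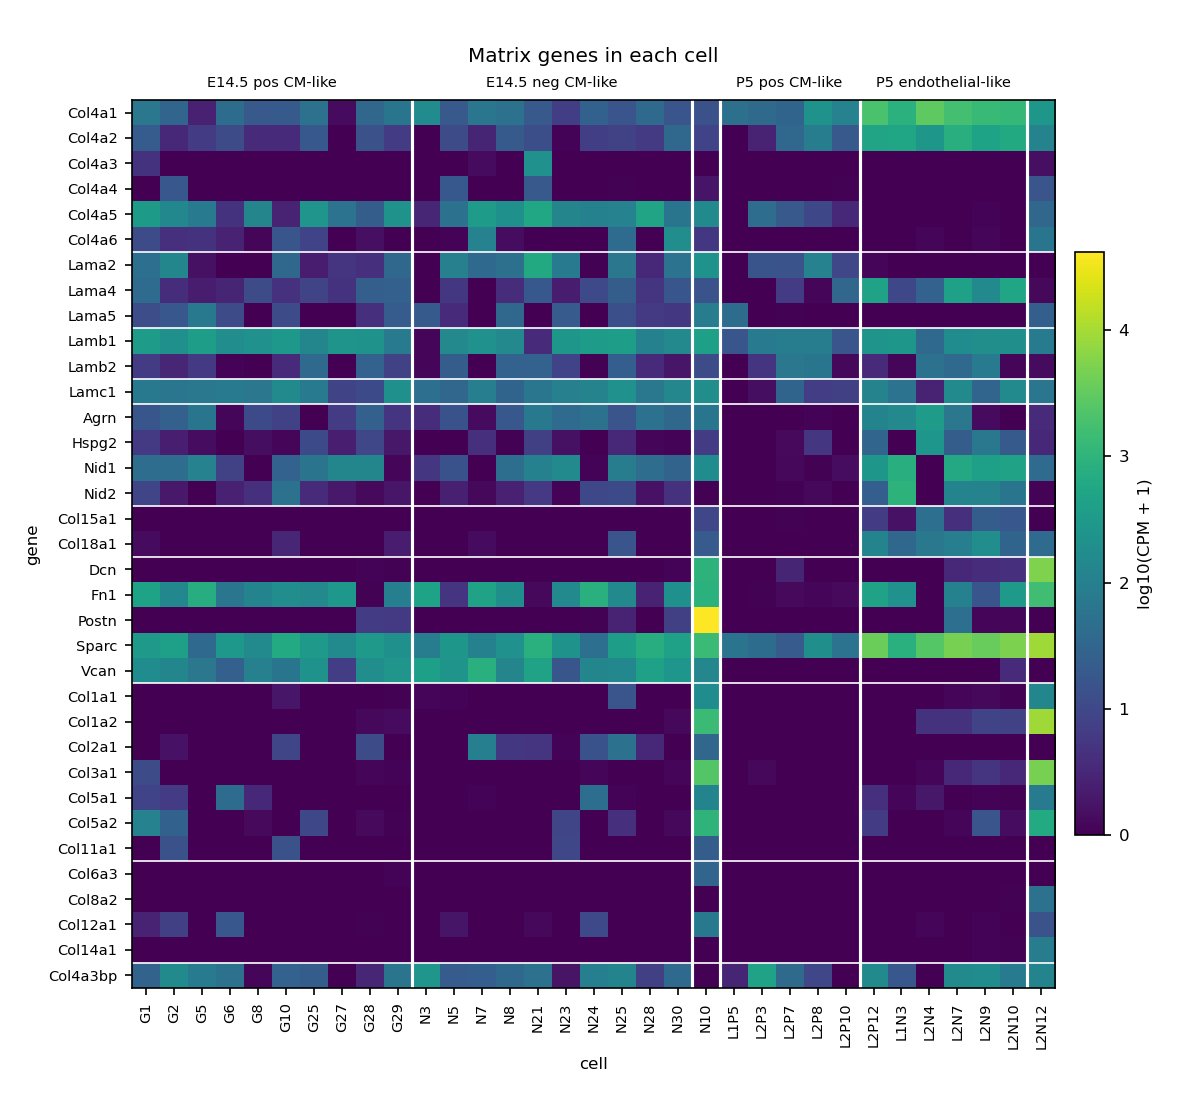
Level of genes that reach 10 CPM in some sum (rows, by family) in each of the 33 cells (columns, by kind of cell), as log10(CPM + 1). CM-like stands for cardiomyocyte-like, pos and neg for the sort, and N10 and L2N12 stand in columns of their own. Fibrillar collagens are bright in N10 and L2N12, and Postn is brightest in N10, at 41228 CPM.

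RNA of the collagen IV genes differed between kinds of cells, and the protein was not measured. Col4a5, the X-linked chain, was the main collagen IV gene of the E14.5 cardiomyocyte-like cells. In the 10 positive cells it had a lowest value of 1.78, a median of 104 and a highest value of 323 CPM, and in the 10 negative cells 2.17, 117 and 587 CPM. Scaled by exon length, so that genes can be compared, its level in the summed counts was 17.1 CPM per kb in positive and 33.8 CPM per kb in negative cells. Col4a1, the most widespread chain, stood at 3.89 and 3.98 CPM per kb. Col4a5 exceeded Col4a1 per kb in 16 of these 20 cells. In the P5 cardiomyocyte-like cells Col4a5 was at 0 CPM in L1P5, 44.2 in L2P3, 18.8 in L2P7, 9.01 in L2P8 and 2.31 in L2P10. All 5 values lay below the E14.5 positive median, and the ranges overlapped. Here the order was the other way, with 2.52 CPM per kb of Col4a5 and 16.8 of Col4a1 in the summed counts, and Col4a5 exceeded Col4a1 in L2P3 only. Among the 6 endothelial-like cells, 1 read of Col4a5 was found, in L2N9, beside 145950 reads of Col4a1.

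Col4a1 and Col4a2 were the collagen IV genes of the endothelial-like cells. Col4a1 stood at 1980.2 CPM in L2P12, 890 in L1N3, 2907 in L2N4, 1731 in L2N7, 1280.4 in L2N9 and 1164 in L2N10. The lowest of these was above the highest cardiomyocyte-like cell, L2P8 at 233 CPM. Col4a2 had 275 to 787 CPM in the same 6 cells, against 0 to 85.0 CPM in the 25 cardiomyocyte-like cells. Col4a1 exceeded Col4a2 in 18 of 20 E14.5 cardiomyocyte-like cells, in 4 of 5 at P5 and in 6 of 6 endothelial-like cells, per kb as well as in CPM. Across all 33 cells the log2 levels of the pair had a Pearson r of 0.80 and a Spearman rho of 0.60. Across the 20 E14.5 cardiomyocyte-like cells r was 0.26 and rho 0.12. For Col4a5 and Col4a6 r was 0.31 over all cells and 0.02 over those 20. These values describe cells that share cell types and differ in depth. Col4a1 and Col4a2 went together across cell types more than within the E14.5 cells, and pairs on different chromosomes did so too. For Nid1 and Nid2 r was 0.57 over all cells and -0.03 over those 20. For Col1a2 and Col3a1 r was 0.96 and -0.02, with rho at 0.76 and 0.52. Col1a2 and Col3a1 were highest in L2N12 and N10, which are among the 33 cells but not among those 20. Any part of the promoters in these values was not tested.

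Col4a3, Col4a4 and Col4a6 were found in few cells. Col4a3 had 212 CPM in the E14.5 negative cell N21 and at most 3.84 CPM in every other cell, and Col4a4, its head-to-head neighbour on chromosome 1, reached 18.3 CPM in the same cell, 17.5 in N5 and 17 in G2. Col4a6 stood at 185 CPM in N30, 111 in N7 and 40.1 in N25, and at most 15.8 CPM in the other E14.5 cells. In L2N12 it was at 61.0 CPM, beside 32.6 CPM of Col4a5 and 15.2 CPM of Col4a4. No read of Col4a6 was found in the 5 P5 cardiomyocyte-like cells, where a count of 0 allows up to 0.0431 CPM in the sum.

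Among the laminins, the alpha chain genes Lama2 and Lama4 differed in level between endothelial-like and P5 cardiomyocyte-like cells. Lamb1, the common beta chain, was at 80.5 to 385 CPM in E14.5 positive cells and 36.7 to 280 CPM in endothelial-like cells, and in P5 cardiomyocyte-like cells at 15.6 to 88.3 CPM. It was lowest in the E14.5 negative cells N3 (0.167 CPM) and N21 (2.65 CPM), while the other 8 of that group had at least 105 CPM. Lamc1, the common gamma chain, had medians of 70.0 CPM in E14.5 positive, 81.9 in E14.5 negative, 5.94 in P5 cardiomyocyte-like and 86.1 in endothelial-like cells. Lama2, the alpha chain of striated muscle, was at 0 CPM in L1P5, 14.9 in L2P3, 13.9 in L2P7, 111 in L2P8 and 8.51 in L2P10. At E14.5 its positive cells had 0, 3.70 and 132 CPM as lowest, median and highest values, and its negative cells 0, 53.1 and 644 CPM. In the endothelial-like cells only L2P12 had reads of Lama2, 4 in all. Lama4, the alpha chain of vessels, was at 456 CPM in L2P12, 9.20 in L1N3, 27.8 in L2N4, 436 in L2N7, 164 in L2N9 and 547 in L2N10. It was at most 39.9 CPM in the cardiomyocyte-like cells, so L1N3 and L2N4 lay within their range and the other 4 above it. Per kb, Lama2 exceeded Lama4 in 0 of 6 endothelial-like cells, in 10 of 20 E14.5 and 3 of 5 P5 cardiomyocyte-like cells. Lamb3 peaked at 25.5 CPM in L2P3. Lama5, an alpha chain of epithelia and vessels, reached 71.1 CPM in G5, 90 in N10 and 24.4 in L2N12, and 1 read was found over the endothelial-like cells.

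**Figure D2:**
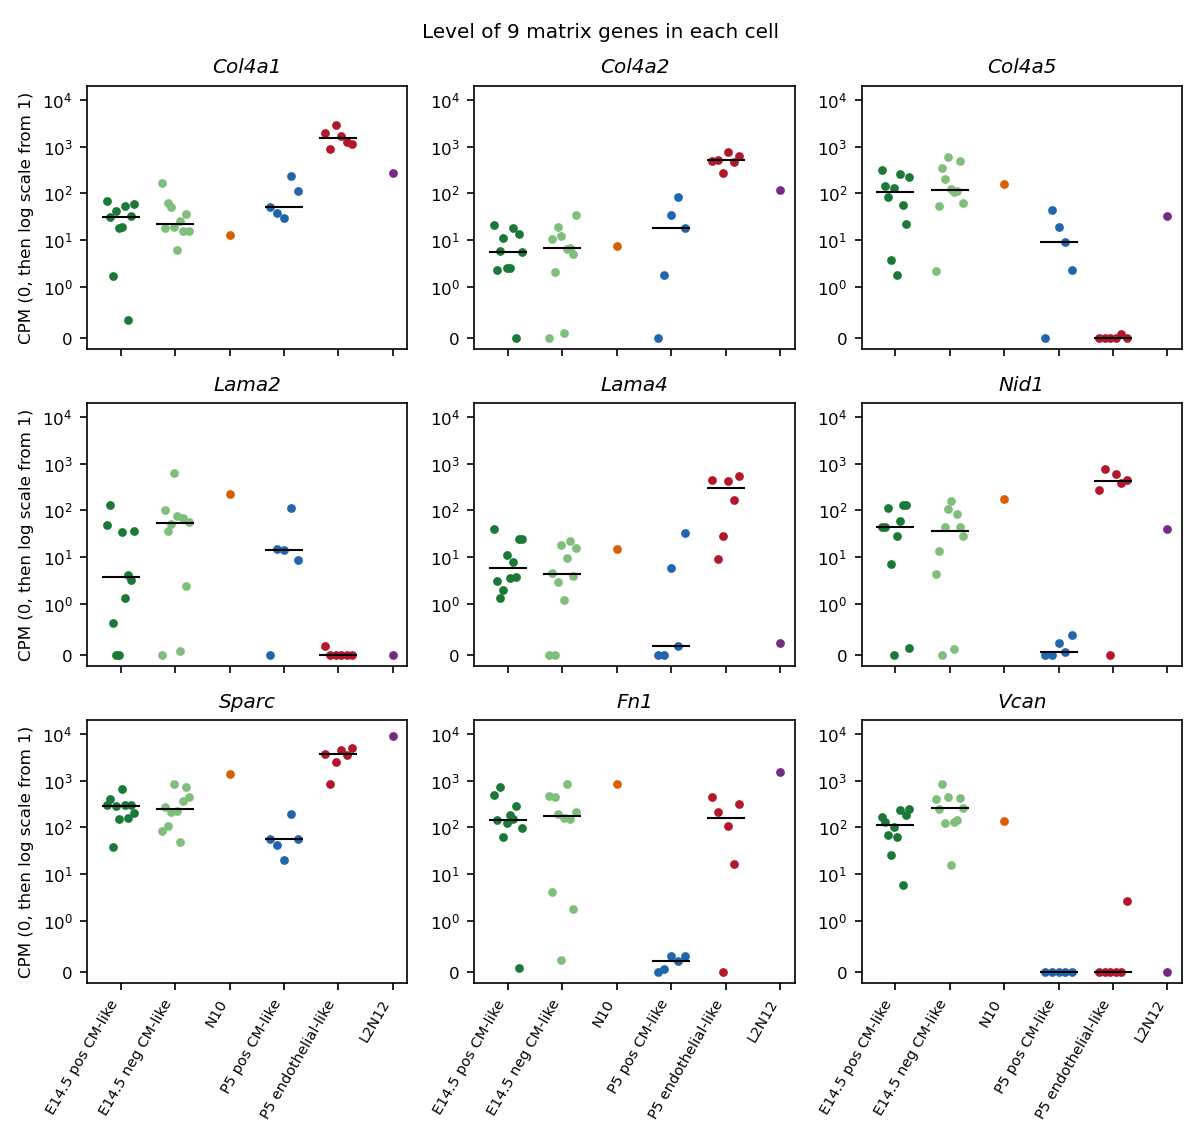
CPM of 9 genes in each cell, by kind of cell, with 0 at the bottom and a log scale from 1 upward; points are cells and black lines are medians over the cells of a kind, drawn where there is more than 1 cell. Col4a5 and Lama2 lie at or near 0 in the endothelial-like cells, where Col4a1 runs from 890 to 2907 CPM, and Vcan is at 0 in all 5 P5 cardiomyocyte-like cells.

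Nid1, Nid2, Agrn and Hspg2 code for the linkers. Nid1, or nidogen, was at 278 CPM in L2P12, 785 in L1N3, 0 in L2N4, 608 in L2N7, 395 in L2N9 and 447 in L2N10. In E14.5 positive cells its lowest, median and highest values were 0, 43.7 and 132 CPM, and in negative cells 0, 35.7 and 158 CPM. The P5 cardiomyocyte-like cells held 10 reads of Nid1 in all, at most 0.398 CPM in a cell. Nid2, its paralog, was highest in L1N3, at 968 CPM, and at 23.4 to 120 CPM in 4 of the other endothelial-like cells, with no read in L2N4. It passed 10 CPM in 2 of the 20 E14.5 cardiomyocyte-like cells. Agrn was at 120 CPM in L2P12, 150 in L1N3, 361 in L2N4, 66.7 in L2N7, 0.363 in L2N9 and 0 in L2N10, so it divided the endothelial-like cells. Hspg2, or perlecan, passed 10 CPM in 5 of those 6 cells and in 1 of the 20 E14.5 cardiomyocyte-like cells. L2N4, with 260 CPM of Hspg2 and 361 CPM of Agrn but no read of Nid1, Nid2 or Fn1, had 5148714 reads and 2994 detected genes, the fewest genes of all cells.

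Fn1, Sparc and Vcan were abundant in the E14.5 cells. Fn1 codes for fibronectin, a ligand of integrins, and was at 10 CPM or more in 9 of the 10 positive cells and 7 of the 10 negative ones. It reached that level in 0 of 5 P5 cardiomyocyte-like cells, which had 0 to 0.319 CPM. Vcan codes for versican, a large proteoglycan of the embryonic heart matrix. Its lowest, median and highest values were 5.82, 114 and 252 CPM in E14.5 positive and 15.9, 256 and 865 CPM in E14.5 negative cells. No read was found in the 5 P5 cardiomyocyte-like cells, and in the endothelial-like cells only L2N10 had any, at 2.69 CPM. Sparc, a collagen-binding glycoprotein, was found in all 33 cells. It ran from 37.2 to 866 CPM at E14.5 without N10, from 20.2 to 198 CPM in P5 cardiomyocyte-like cells and from 867 to 5003 CPM in endothelial-like cells, and stood at 9137 CPM in L2N12.

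The first comparison asks how cycling cardiomyocytes differ between ages, and sets the 5 P5 positive against the 10 E14.5 positive cardiomyocyte-like cells. Collagen IV genes Col4a1 and Col4a2 were higher in the P5 sum, and Col4a5, Lamc1, Lama5, Nid1, Agrn, Fn1 and Vcan were lower. In summed counts Col4a1 stood at 125 CPM (123 to 128, exact Poisson interval at 95%) against 29.03 CPM (28.2 to 29.9), a log2 ratio of 2.11 with an exact binomial interval of 2.06 to 2.16. Col4a2 stood at 42.6 against 7.17 CPM, a log2 ratio of 2.57 (2.47 to 2.67). In single cells Col4a1 was at 50.3 CPM in L1P5, 38.7 in L2P3, 29.9 in L2P7, 233 in L2P8 and 112 in L2P10, against 0.364 to 66.9 CPM at E14.5. Only L2P8 and L2P10 lay above the E14.5 range. L2P8 held 71.3% of the P5 reads of Col4a1 and 76.6% of those of Col4a2, and without it the log2 ratios were 1.01 and 1.18. With each cell weighted equally they were 1.5 and 1.79.

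Of the genes lower at P5, Vcan, Fn1, Nid1 and Agrn differed most in summed counts. Vcan, with 19083 reads at E14.5 and none at P5, was at least 2802-fold lower, counted against a floor of 3 reads over the P5 sum. Fn1 stood at 0.215 CPM (15 reads) against 204 CPM, a log2 ratio of -9.89 (-10.72 to -9.16), and every P5 cell was at or below 0.319 CPM where 9 of 10 E14.5 cells were at 63.8 CPM or above. Nid1 stood at 0.144 against 71.6 CPM, a log2 ratio of -8.96 (-10.02 to -8.08). The E14.5 positive cells G8 and G29 were as low as the P5 cells for Nid1, at 0 and 0.147 CPM. Agrn had 3 reads at P5 and 12.9 CPM at E14.5, a log2 ratio of -8.22 (-10.50 to -6.67). Lamc1 stood at 8.92 against 69.98 CPM (-2.97) and Col4a5 at 16.9 against 115 CPM (-2.76). For Lama5 (1.54 against 10.3 CPM, -2.75), 99.1% of the P5 reads came from L1P5, the shallowest cell. That cell stood at 41.6 CPM, within the E14.5 positive range of 0 to 71.1 CPM. Without it, when 1 read was left, the log2 ratio was -9.44, and without L2P8 it was -2.05. Lama5 was no longer past 4-fold at 10 CPM in 3 of 15 omissions of single cells, so its lower level rests on few cells. The log2 ratio of Lamc1 was -4.02 without L2P7, that of Col4a5 was -3.63 without L2P3, and that of Nid1 was -9.67 without L2P10. Without L2P8 the ratio of Agrn and the bound of Vcan were -7.52 and -10.75. Of the other laminin chains, Lama2 (49.9 against 18.1 CPM, log2 ratio 1.46) and Lamb2 (36.7 against 9.84 CPM, 1.90) were within 4-fold, and 85.4% of the P5 reads of Lama2 came from L2P8.

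Of the 53 genes, 15 reached 10 CPM in the higher sum, and 2 of these were past 4-fold higher and 7 past 4-fold lower at P5. Over all 7344 genes at that level, 15.0% were past 4-fold higher and 25% lower. The median log2 ratio was -1.63 over the 15 and -0.51 over all genes. Without Col4a3bp the counts were 2 and 7 of 14 and the median was -2.18. Without L2P8 no matrix gene was past 4-fold higher. A gene that reached 10 CPM only through the sum in which it was high had to differ, so these counts, and those of the later comparisons, are a description. With edgeR's TMM factors 4 were past 4-fold higher, Lamb2 and Col4a3bp being added, and 7 lower. In the groups as labelled, with the endothelial-like L2P12 among the P5 positive cells, 6 were higher and 3 lower, and the median was 1.12. Other genes of the matrix moved both ways. Of 12 collagen processing genes at 10 CPM, 2 were past 4-fold higher and 3 lower: Pcolce2, an enhancer of procollagen cleavage, stood at 78.4 against 0.0380 CPM, and Crtap, of the prolyl 3-hydroxylation complex, at 11.8 against 51.2 CPM. Of 16 matrix receptors 5 were higher and 4 lower, with the glypican Gpc3 at 1.13 against 884 CPM. Of 11 proteases and inhibitors 1 was higher and 5 lower, and the versican-cleaving proteases Adamts1 and Adamts9 were at 22.6 against 141 CPM and 2.71 against 52.2 CPM, with 99.8% and 98.4% of the P5 reads from 1 cell. Of 10 other matrix proteins 2 were higher and 3 lower, among them Fbn2, a fibrillin, at 3.94 against 95 CPM. Fibroblast markers gave 1 of 3 past 4-fold lower, epicardial markers 1 of 1 lower (Tbx18) and mural markers 1 higher and 1 lower of 2. Endothelial markers did not reach 10 CPM in either sum, and their part in the result was not tested.

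The second comparison, between E14.5 positive and negative cells, asks which matrix genes go with the cycling reporter. Most of them differed little between the sums. Lamb1 stood at 218 against 205 CPM, a log2 ratio of positive over negative of 0.08 (0.06 to 0.10), Col4a1 at 29.03 against 29.7 CPM (-0.03, -0.09 to 0.02) and Fn1 at 204 against 231 CPM (-0.18, -0.20 to -0.16). Vcan (121 against 257 CPM, -1.09) and Col4a5 (115 against 227 CPM, -0.98) were lower in positive cells, and their ranges over cells overlapped. Of 17 genes at 10 CPM none was past 4-fold higher and 4 were lower, against 8.02% and 9.05% of 7261 genes. The 4 were Col4a3, Col4a6, Lama2 and Col2a1, the main collagen of cartilage, and each leaned on few cells. Col4a3 (0.215 against 14.9 CPM) rested on N21 alone: that cell held 99.9% of the reads of its group, and without it the log2 ratio was 3.56 in place of -6.12. Lama2 (18.1 against 83.6 CPM) went from -2.21 to -1.19 without N21. Col4a6 (2.99 against 28 CPM) went from -3.23 to -1.94 without N30. Col2a1 (2.20 against 14.2 CPM) reached 96.1 CPM in N7, and its log2 ratio of -2.69 was -4.43 without G28 and -1.96 without N25. Without G1 that of Col4a3 was -9.54, and Lama2 was at -2.84 without G2. The median over the 17 was -0.77, with -0.14 over all genes, and without Col4a3bp it was -0.78 over 16. Cells whose title numbers run from 1 to 10 gave a median of 0.26 and those numbered 21 to 30 gave -0.93, so the sign did not hold within both. Of the other lists, 0 genes were past 4-fold higher, and 1 of 11 processing genes, 2 of 14 receptors, 2 of 10 proteases and inhibitors and 4 of 13 other matrix proteins were lower. Timp3, an inhibitor bound to matrix, was at 46.6 against 191 CPM, a log2 ratio of -2.04, just past 4-fold. Of its reads in the negative cells, 49.8% came from 1 cell.

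The third comparison sets the 6 endothelial-like against the 5 cardiomyocyte-like P5 cells, and most basement membrane genes differed between them. The collagen IV genes Col4a1 (1647 CPM, 1639 to 1656, against 125 CPM; log2 ratio 3.72, 3.69 to 3.75) and Col4a2 (599 against 42.6 CPM; 3.81, 3.76 to 3.87) were higher in the endothelial-like sum. Of the laminins, Lama4 stood at 367 against 7.02 CPM (5.71, 5.58 to 5.84) and Lamc1 at 115 against 8.92 CPM (3.69, 3.57 to 3.81). All linkers were higher: Nid1 at 450 against 0.144 CPM (11.61, 10.73 to 12.67), Nid2 at 146 against 0.115 CPM (10.31, 9.33 to 11.53), Hspg2 at 41.7 against 1.74 CPM (4.58, 4.32 to 4.86), and Agrn at 84.8 CPM against 3 reads (10.94, 9.40 to 13.22). The multiplexins, collagens of vascular basement membranes, went the same way. Col18a1, the precursor of endostatin, was at 29.2 to 182 CPM in the 6 cells against 1 read in the 5, a log2 ratio of 12.69 (10.21 to 18), and Col15a1 stood at 10.7 CPM against 2 reads (8.54, 6.69 to 11.59). Sparc was at 3929 against 102 CPM (5.27, 5.24 to 5.31), with every endothelial-like cell above every P5 cardiomyocyte-like cell. Several of these ratios leaned on single cardiomyocyte-like cells without losing their direction. Without L2P8 they were 4.82 for Col4a1, 5.21 for Col4a2, 8.80 for Hspg2, 12.61 for Nid2, 10.24 for Agrn, 10.41 for Col18a1 and 6.58 for Sparc. Lama4 was at 8.09 and Nid1 at 12.33 without L2P10, Lamc1 at 4.74 and Col15a1 at 9.26 without L2P7, and Nid2 at 9.35 without L1N3.

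Col4a5 and Lama2 were lower in the endothelial-like cells. Col4a5 had 1 read there and 1179 in the cardiomyocyte-like cells, a log2 ratio of -10.55 (-15.86 to -8.07), and Lama2 had 4 reads and 3471, a log2 ratio of -10.11 (-11.99 to -8.75). Without L2N9 the former was -8.77, and without L2P8 the latter was -8.04. Lamb1 (197 against 70.4 CPM, 1.49) and Lamb2 (25.2 against 36.7 CPM, -0.54) were within 4-fold. Fn1 stood at 219 against 0.215 CPM (9.99, 9.27 to 10.83), although it was at 0 in L2N4, and the ratio was 9.34 without L2P12. Postn, at 46.7 CPM in L2N7 and at most 0.182 CPM in the other 5, had no read in the cardiomyocyte-like cells. Its log2 bound was 8.44, and without L2N7 it was 0.62. Of 18 genes at 10 CPM, 13 were past 4-fold higher and 2 lower, where 32.7% and 20.5% of 7946 genes were. The median log2 ratio was 4.93, and 0.69 over all genes. Without Col4a3bp it was 5.27 over 17 genes, with 13 and 2 again. Without L1N3 and L2N10, which carry globin RNA, the counts were again 13 and 2 and the median was 5.09. Of 15 cardiomyocyte markers 15 were past 4-fold lower and of 11 endothelial markers 11 were higher. These lists set the classes compared here, so that outcome was built in and is no separate result. L2P12 is the only endothelial-like cell of the positive sort, the sort of the cardiomyocyte-like cells compared here. It stood at 1980.2 CPM of Col4a1, 456 of Lama4, 278 of Nid1 and 3834 of Sparc. Those cardiomyocyte-like cells had at most 233, 32.8, 0.398 and 198 CPM. That is 1 cell, and no P5 negative cell was cardiomyocyte-like. The parts of cell type and of the sort in the summed ratios were not tested.

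**Figure D3:**
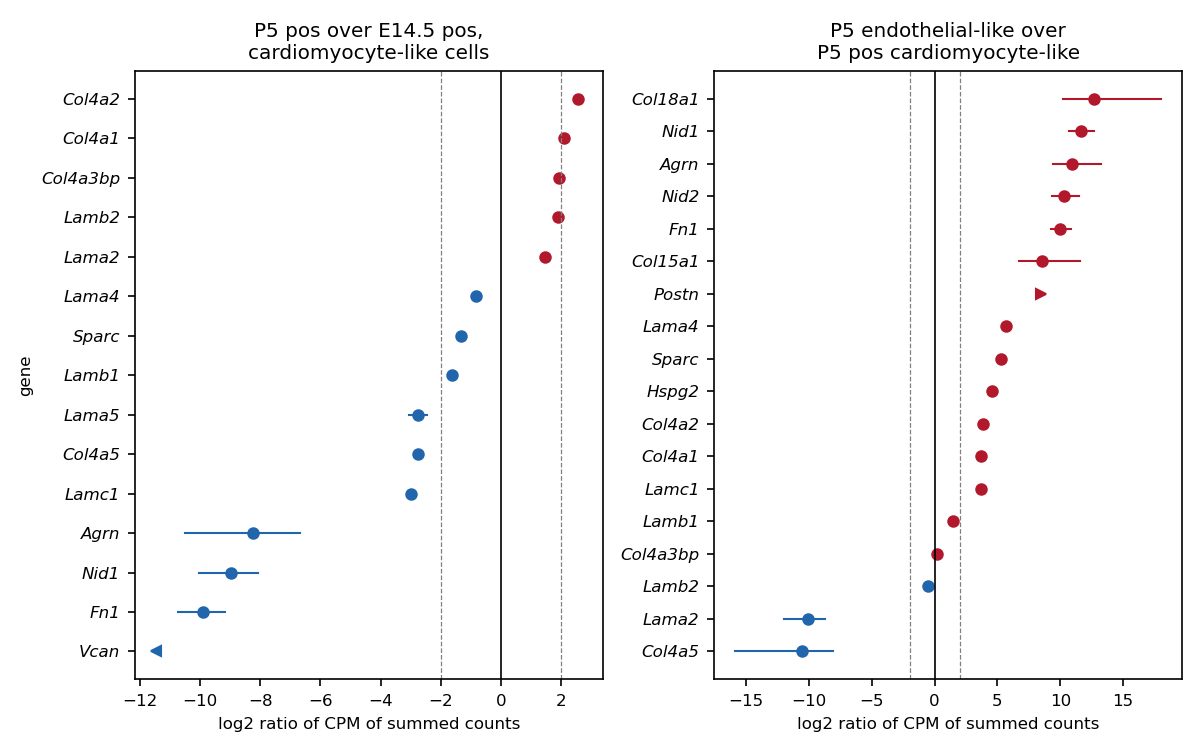
Log2 ratios of the genes that reach 10 CPM in the higher sum, for P5 positive over E14.5 positive cardiomyocyte-like cells (left) and P5 endothelial-like over P5 positive cardiomyocyte-like cells (right). Points are ratios of summed counts, bars are exact binomial intervals that cover counting error only, triangles are bounds against a floor of 3 reads, red is higher and blue lower, and dashed lines mark 4-fold. On the left Vcan is lowest, at a bound of -11.45, and on the right Col18a1 is highest, at 12.69.

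Partner genes of the matrix are read against the 32.7% of all genes that were past 4-fold higher and the 20.5% that were lower. Of 14 processing genes 8 were past 4-fold higher (57.1%) and 1 lower (7.14%) in endothelial-like cells. Pxdn, the peroxidase that crosslinks collagen IV, stood at 956 against 48.9 CPM, and the lysyl hydroxylases Plod1 and Plod3 at 83.6 against 4.83 CPM and 60 against 0.0718 CPM, while Pcolce2 was lower, with 2 reads against 78.4 CPM. Of 15 receptors 4 were higher (26.7%) and 5 lower (33.3%), shares near those of all genes: Itgb1, the common integrin beta chain, stood at 867 against 119 CPM. Of 15 proteases and inhibitors 11 were higher (73.3%) and 1 lower (6.67%), with Plat at 69.2 CPM against 2 reads. Mmp14, at 70.5 CPM against 1 read, had 87.6% of its reads in 1 cell. Of 18 other matrix proteins 11 were higher (61.1%) and 5 lower (27.8%). Egfl7, among the higher ones, is also an endothelial marker that helped to set the class. Igfbp7, a protein of vessel walls, stood at 1874 against 0.589 CPM, and Frem2, a protein of embryonic basement membranes, at 0.0339 against 125 CPM.

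L2N12, the epicardial-like P5 negative cell, had high RNA levels of fibrillar collagen genes. Col1a2 and Col3a1, chains of collagens I and III, stood at 8983 and 4706 CPM, Col5a2 at 662, Col1a1 at 129 and Col5a1 at 80.1 CPM. Dcn, the collagen-binding proteoglycan decorin, stood at 5381 CPM, Fn1 at 1568 and Sparc at 9137 CPM. Against the sum of the endothelial-like cells, log2 ratios were 11.31 (11.15 to 11.48) for Col1a2, 11.51 (11.27 to 11.76) for Col3a1, 11.68 (11.45 to 11.93) for Dcn and 2.84 (2.81 to 2.87) for Fn1. Col8a2, a network-forming collagen at 53.7 CPM, and Col14a1, a fibril-associated one at 84.5 CPM, had 2 and 3 reads over the endothelial-like cells. Basement membrane genes were lower in L2N12: Col4a1 at 274 against 1647 CPM (-2.59), Lama4 at 0.237 against 367 CPM (-10.60, -12.47 to -9.24), Nid1 at 40.6 against 450 CPM (-3.47) and Nid2 at 2 reads against 146 CPM (-10.27, -13.31 to -8.41). Col4a5 (32.6 CPM), Col4a6 (61.0 CPM) and Lama5 (24.4 CPM) were higher, with 1, 4 and 1 reads over the endothelial-like cells. Of 29 genes at 10 CPM, 14 were past 4-fold higher and 10 lower, against 20.2% and 42.4% of 7738 genes. The median log2 ratio was 1.22, and -0.90 over all genes. Genes that reached 10 CPM through L2N12 alone had to be higher there, so these values are a description only. Without Col4a3bp it was 2.03 over 28 genes, with 14 and 10 again. Loxl1, a lysyl oxidase, stood at 208 against 0.0564 CPM, and Bgn, the proteoglycan biglycan, at 1720.5 against 0.497 CPM. These values come from 1 cell. Leaving out single endothelial-like cells moved the log2 ratio of Fn1 to 3.48 (without L2P12), of Nid2 to -9.30 (without L1N3), of Col4a5 to 9.72 (without L2N9), of Col4a6 to 11.21 (without L2N9), of Lama5 to 8.94 (without L2N7), and of Col8a2 to 11.96 (without L2N10).

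Traces of the genes that led L2N12 were present in some cells of the same label. Col1a2 had 3.69 CPM in L2N4, 3.80 in L2N7, 7.81 in L2N9 and 6.91 in L2N10, which is 0.0411% to 0.0869% of its level in L2N12. It had no read in L1N3 or L2P12. L2N4 held 19 reads of Col1a2, 1 of Col3a1 and 0 of Dcn. Reads of Dcn per read of Col1a2 were otherwise 0.599 in L2N12, 0.593 in L2N7, 0.360 in L2N9 and 0.5 in L2N10, and those of Col3a1 were 0.524, 0.620, 0.5 and 0.320. In N10 the same ratios were 0.691 and 1.74. Postn, which had no read in L2N12, had 46.7 CPM in L2N7. The source of these reads was not tested.

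N10, the E14.5 negative cell with markers of more than 1 type, also had high RNA levels of fibrillar collagen genes, in other proportions. Postn, which codes for periostin, a protein of valve mesenchyme and fibroblasts, had 771876 reads there, or 41228 CPM, and at most 6.52 CPM in the other 20 E14.5 cells. Col3a1 stood at 2432 CPM, Col1a2 at 1400, Col5a2 at 1008, Dcn at 967, Col1a1 at 173 and Col5a1 at 119 CPM. Against the sum of the other E14.5 negative cells, log2 ratios were 15.54 (15.31 to 15.78) for Postn, 15.71 (14.74 to 16.93) for Col3a1, 15.60 (14.37 to 17.22) for Col1a2 and 9.12 (8.96 to 9.28) for Col5a2. Col1a1 (1.96 CPM) and Col5a1 (6.15 CPM) were in those cells almost wholly from N25 and N24, and without those cells the ratios were 13.71 and 12.57 in place of 6.46 and 4.27. Without N30 the ratios of Postn and Col1a2 were 17.23 and 17.77, without N24 that of Col3a1 was 16.93, and without N23 that of Col5a2 was 10.95. Some matrix genes of N10 were within 4-fold of the other E14.5 negative cells: Col4a5 stood at 157 against 227 CPM (-0.54), Lama2 at 228 against 83.6 CPM (1.45), Lamb1 at 401 against 205 CPM (0.96) and Vcan at 138 against 257 CPM (-0.90). Other basement membrane genes were not. Col4a3 was lower, at a log2 bound of -6.54, and Col4a6 was lower, at -2.59. Without N21 the former was 0, and without N30 the latter was -1.30. The multiplexin Col18a1 was higher, at 3.36. Lama5 (90 against 9.67 CPM) and Col6a3, a chain of microfibrillar collagen VI with 31.2 CPM against no read, were higher. Of 29 genes at 10 CPM, 12 were past 4-fold higher and 4 lower, where 12.9% and 36.7% of 7223 genes were. The median log2 ratio was 1.52, and -0.69 over all genes. Genes that reached 10 CPM through N10 alone had to be higher there, so these values are a description only. Without Col4a3bp, 12 of 28 were higher and 3 lower, and the median was 1.70. Hapln1 and Has2, which bind and make the hyaluronan of the cardiac jelly, stood at 1180 CPM against 2 reads and at 220.5 CPM against none. Fibroblast markers (Tcf21 at 530 CPM, Dpt at 109 CPM) and epicardial ones (Wt1 at 332 CPM, Tbx18 at 461 CPM) were found beside these genes. The 2 epicardial ones were not particular to N10. Tbx18 stood at 621 CPM in the cardiomyocyte-like cell G25, and Wt1 at 234 CPM in N3. The other epicardial markers, Upk3b, Upk1b, Aldh1a2, Msln and Krt19, had no read in N10. Over the whole lists, 4 of 8 fibroblast markers at 10 CPM were past 4-fold higher and 3 lower, 2 of 2 epicardial and 2 of 2 endocardial ones were higher, and of 15 cardiomyocyte markers 0 were higher and 3 lower. Their part in the result was not tested. Whether N10 is 1 cell of an intermediate kind or RNA of more than 1 cell was not tested.

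**Figure D4:**
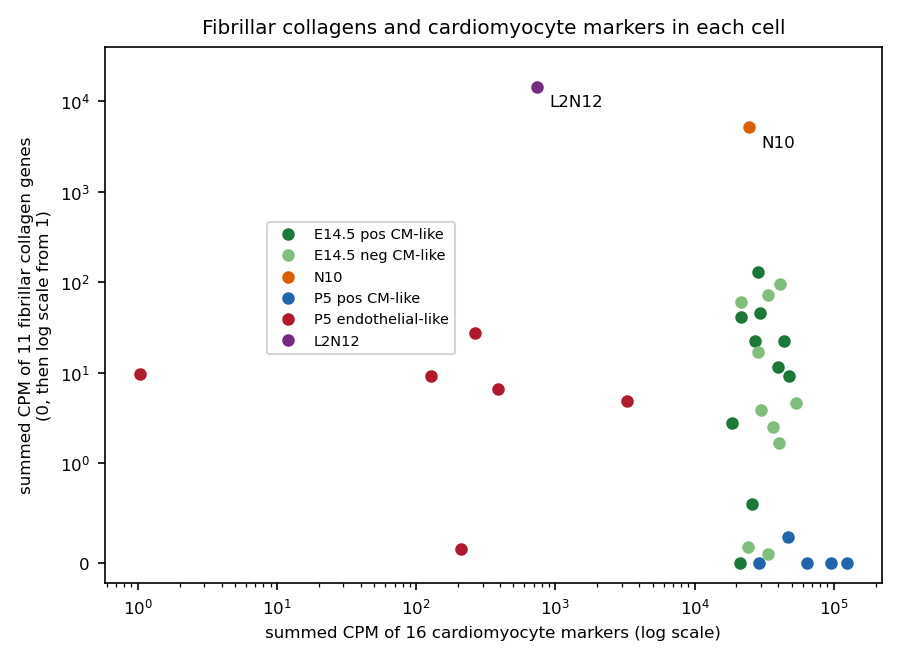
Summed CPM of the 11 fibrillar collagen genes (vertical, 0 and then a log scale from 1) against the summed CPM of 16 cardiomyocyte markers (horizontal, log scale) in each of the 33 cells, coloured by kind of cell. N10, at 5188 CPM, lies above the cardiomyocyte-like cells, which have at most 129 CPM, and L2N12, at 14560 CPM, lies highest with few cardiomyocyte markers.

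Outside N10 and L2N12 the fibrillar collagens were sparse and uneven. They summed to 0 to 129 CPM in E14.5 cardiomyocyte-like cells, to 0 to 0.263 CPM at P5 and to 0.142 to 27.4 CPM in endothelial-like cells. Single E14.5 cells stood high: Col5a2 was at 108 CPM in G1, Col2a1 at 96.1 CPM in N7, Col5a1 at 46.5 CPM in N24 and 40.9 CPM in G6, and Col5a3 at 22.2 CPM in G27 with no read in any other cell. Over all 53 genes, 8 reached 10 CPM in 1 cell only and 13 in none. At least 50% of cells reached 10 CPM for 11 genes in E14.5 positive, 11 in E14.5 negative, 5 in P5 cardiomyocyte-like and 15 in endothelial-like cells. Of the remaining collagens, Col7a1, Col10a1, Col13a1, Col19a1 and Col23a1 never passed 6.54 CPM in a cell. Col4a3bp, the ceramide transporter gene, was unlike its letter neighbours: it stood at 461 CPM in L2P3 and at 82.8 to 175 CPM in 4 of the 6 endothelial-like cells, with 1 read in N10.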

How the data were processed

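Reads of single ventricular cells were processed with CASAVA 1.8.2, STAR 2.4.0j and HTSeq 0.6.1p1 on mm10, per the submitters' processing notes; their roles, the annotation and the use of strand are not given in the sources used here. The authors deposited raw read counts per gene, and counts were used as deposited for all 33 cells. CPM were computed per cell and from counts summed over cells of a kind, with exact Poisson intervals, and log2 ratios with exact (Clopper-Pearson) binomial intervals at 95%. Antisense amplification copies molecules, so intervals and the floor of 3 counts cover counting error only. Medians used 0.5 count added to each sum. A gene was called past 4-fold with 10 CPM or more in the higher sum. Genes at 100 CPM in some sum are described with values, and the 3 highest and lowest partner genes at 50 CPM per list were candidates for naming. Members, lists and comparisons were chosen with earlier results of these data known. Exon lengths and coordinates come from GENCODE on GRCm38. The calculation was tested on simulated data. Alternatives used edgeR 4.0.16 TMM factors, DESeq2 1.42.0 size factors, thinning, equal weights and single cells left out. Some genes are counted but not reported here by name or drawn.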

Additional observations from a re-analysis of the deposited data

Results flagged for a closer look

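For 9 gene families, the summed CPM of the highest and lowest cells was set against the rest of each labelled group of 6 or 10 cells. In 12 of 27 combinations of family and group, a cell lay further off than Dixon's 95% critical value allows. By chance about 1 in 20 groups is flagged, or 1.35 here, if values are normally distributed, and the families depend on each other. CPM of single cells, many near 0 and in groups of mixed cell type, need not be normal, so 1.35 is a rough guide only. Groups of more than 10 cells, here the 11 E14.5 negative ones, were left out. In P5 positive, the endothelial-like cell L2P12 stood apart in 7 families: collagen IV at 2483 CPM (next cell 327), laminin alpha chains at 456 CPM (next 111), laminin gamma chains at 116 CPM (next 29.9), linkers at 453 CPM (next 4.82), multiplexins at 125 CPM (next 0.0798), secreted matrix proteins at 4285 CPM (next 199) and fibrillar collagens at 9.20 CPM (next 0.263). In P5 negative, L2N12 stood apart in secreted matrix proteins at 16085 CPM (next 5325), fibrillar collagens at 14560 CPM (next 27.4) and other collagens at 171 CPM (next 0.194). In E14.5 positive, G1 had 129 CPM of fibrillar collagens (next 45.7). L2P10 had 1.43 CPM of other collagens in P5 positive (next 0.0798).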

How the results depend on the processing

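Each ratio has 1 sample on each side, so no alternative gives a replicate check, and depth limits zeros in L1P5 (2545036 reads) and L2N4 (5148714) most. No paired analysis was possible because replicate numbers only name cells in accession order and no result comes from a test. For P5 positive over E14.5 positive cardiomyocyte-like cells, the count of genes past 4-fold higher, 2 as reported, was 0 with equal weights, 4 with TMM factors, DESeq2 size factors, no minimum CPM or title numbers 21 to 30, 5 at 2-fold and 6 in the labelled groups, and ran from 1 (without L2P8 or G27) to 4 (without L2P10 or G2) without single cells. The 1 left without L2P8 was Col4a3bp, so no matrix gene was past 4-fold higher there, and the 1 left without G27 was Col4a2. Among the 4 with TMM factors, and without L2P10 or G2, Col4a3bp was 1, leaving 3 matrix genes. The lower count of 7 was 23 with no minimum and 3 in the labelled groups. There Agrn reversed, at 1.19. For E14.5 positive over negative, the higher count of 0 was 1 with equal weights or thinning, 3 within title numbers 1 to 10 and 9 with no minimum, and 0 to 1 without single cells, the 1 being without G27. The lower count of 4 was 12 with no minimum and 11 in the labelled groups, and 2 to 4 without single cells, the 2 being without N21. Title numbers 1 to 10 reversed the median, at 0.26, and Col4a3, at 2.86. Without single cells Col4a3 ran from -9.54 (without G1) to 3.56 (without N21). For endothelial-like over cardiomyocyte-like cells, the lower count of 2 was 6 with no minimum and 1 in the labelled groups, and 1 to 2 without single cells, the 1 being without L2P3. For N10 the lower count of 4 was 8 with no minimum, and 2 to 4 without single cells, the 2 being without N30. For L2N12, Postn ran from -6.82 (without L2P12) to 1.42 (without L2N7). The cause of these changes was not tested, except that no minimum tests more genes. TMM factors shifted the median of all genes by 0.27 in the first comparison and by -0.25 in the third. Title numbers 21 to 30 were not run for N10, whose own number is 10. Title numbers, weights, scaling and thinning were planned; leaving out Col4a3bp, or L1N3 and L2N10, was added after the data were seen and moved no count past 1.5 times.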
